A study of Mus musculus with 6 samples.

Results

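The C/EBP and other myeloid transcription factors are 9 genes chosen by symbol: the C/EBP family genes Cebpa, Cebpb, Cebpd, Cebpe and Cebpg, the Ets factor gene Spi1, which encodes PU.1, and the regulator genes Gfi1, Irf8 and Id2. Of these 9 genes 8 were measured, among 18193 genes in all, through 15 of 34945 probe sets that carry 1 gene symbol. Cebpe was not analysed here, because no probe set carried its symbol in the annotation used. Where a gene had several probe sets, the one with the highest mean over the 6 arrays stood for it and the others are given beside it.

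All mice were adult males and females of 3 to 6 months, hemizygous for Tg(Ren1-GFP)2Kwg, a transgene in which the renin gene's regulatory sequence drives green fluorescent protein (GFP). Sorted samples (n = 3) were femoral marrow cells kept by gates for scatter, single cells and GFP, and presort samples (n = 3) were unsorted marrow of the same 3 pools of 4 to 5 mice each. The scatter gate also removed erythrocytes and debris, and the GFP gate let in 0.1% of autofluorescent cells of animals without the transgene, so the groups differ by more than GFP and report the transgene rather than renin itself. Each sample was hybridised to 1 Affymetrix 3′ array, and the values below are log2 intensities or sorted minus presort differences of them.

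C/EBP proteins are basic leucine zipper factors that bind DNA as pairs, and each can pair with its relatives. In marrow, C/EBPα is needed for the step from common progenitors to granulocyte and monocyte progenitors, C/EBPβ and C/EBPδ act in emergency and later granulopoiesis, and C/EBPγ lacks a transactivating region of its own and acts mainly as a partner. PU.1 works with them in granulocytes and monocytes and, at a lower dose, in B cells, whereas IRF8 favours monocytes and dendritic cells over granulocytes and is also made by B cells. Gfi1 represses monocyte genes in granulocyte progenitors and serves lymphoid progenitors too, and Id2 holds E proteins, the partners of early B cell factors, off DNA.

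The promoters that could be read are shown for 4 members: Cebpa and Cebpb, which fell together, Cebpg, which lies next to Cebpa on chromosome 7 with no protein-coding gene between them and did not pass the test, and Irf8, which rose. Each is the 250 bases before the annotated start in RefSeq, build GRCm38.p6, written 5′ to 3′ on the gene's strand. Such a window was read for 6 of the 9 members, which did not include Cebpd, Cebpe and Spi1. Capitals mark matches on either strand to the short C/EBP site TTGCG and to the fuller C/EBP site TTGCGNAA, which contains the short one. The other letters searched and marked were GGAAGT, a core that PU.1 can bind, TATAAA, the core promoter box of that name, and finally CCAAT, a box near many promoters.
Cebpa, chr7:35119043-35119292, plus strand: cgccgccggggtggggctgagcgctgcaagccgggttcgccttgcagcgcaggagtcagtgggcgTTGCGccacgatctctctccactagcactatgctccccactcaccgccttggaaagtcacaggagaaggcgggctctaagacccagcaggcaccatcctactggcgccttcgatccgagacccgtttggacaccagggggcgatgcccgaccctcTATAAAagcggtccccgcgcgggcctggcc
Cebpb, chr2:167688665-167688914, plus strand: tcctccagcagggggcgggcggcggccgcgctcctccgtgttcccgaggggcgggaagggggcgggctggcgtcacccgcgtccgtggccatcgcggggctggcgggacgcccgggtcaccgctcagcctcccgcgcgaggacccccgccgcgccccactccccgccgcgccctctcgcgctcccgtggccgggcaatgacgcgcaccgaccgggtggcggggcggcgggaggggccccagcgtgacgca
Cebpg, chr7:35056567-35056816, minus strand: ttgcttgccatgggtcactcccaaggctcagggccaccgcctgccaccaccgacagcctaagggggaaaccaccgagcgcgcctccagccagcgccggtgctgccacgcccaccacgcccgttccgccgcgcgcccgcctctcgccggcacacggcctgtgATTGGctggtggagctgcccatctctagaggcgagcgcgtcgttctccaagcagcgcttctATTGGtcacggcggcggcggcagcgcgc
Irf8, chr8:120736108-120736357, plus strand: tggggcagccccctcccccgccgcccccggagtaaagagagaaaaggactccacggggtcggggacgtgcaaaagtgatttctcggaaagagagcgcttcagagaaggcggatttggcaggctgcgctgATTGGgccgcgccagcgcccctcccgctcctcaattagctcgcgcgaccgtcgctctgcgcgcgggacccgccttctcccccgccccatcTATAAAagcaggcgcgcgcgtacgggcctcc

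The Cebpa window held 1 short C/EBP site, 185 to 181 bases before the start, and a TATA box 30 to 25 bases before it. The Irf8 window held a TATA box 31 to 26 bases and 1 CCAAT box 121 to 117 bases before the start. The Cebpg window held 2 CCAAT boxes and the Cebpb window no match to any of these letters. Over all 32851 windows of the same length, TTGCG was found in 14.5%, TTGCGNAA in 0.7%, GGAAGT in 19.7%, TATAAA in 12.4% and CCAAT in 33.8%. A match is a description of the letters and no evidence of binding in these cells.

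Correlations of log2 values across genes were 0.986 to 0.992 within sorted, 0.992 to 0.996 within presort and 0.922 to 0.948 between the groups. The 3′ probe set of the beta-actin control exceeded its 5′ probe set by 3.17, 1.54 and 1.43 (log2) on sorted arrays 1, 2 and 3, against 1.11, 0.95 and 0.81 on presort arrays, so that sorted replicate 1 stood apart. For Gapdh these differences were 3.84, 2.13 and 2.44 on sorted arrays, against 1.99, 1.61 and 1.75 on presort arrays (both two-sided exact permutation p = 0.1, the smallest that 3 against 3 arrays allow). The measured makeup of the samples differed too. All 13 measured B cell markers were higher in sorted samples, with a summed intensity of 99780 to 106600 on sorted arrays, against 16230 to 29670 on presort arrays. All 12 neutrophil markers were lower, with sums of 58370 to 109000 in sorted and 210500 to 220300 in presort samples, as were all 13 monocyte and macrophage markers, with sums of 2544 to 5600 in sorted and 25490 to 32660 in presort samples. All these markers were called at the threshold given below, beside 14.5% of all genes called higher and 18.1% called lower. No marker was at 0, since the lowest deposited intensity is 9.71. In these bulk samples, fewer cells of a type and less RNA of a gene per cell cannot be told apart, and the part of these differences in the results below was not tested.

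Of the 8 measured members, 4 fell in sorted samples, 1 rose and 3 did not pass the test. Cebpa, Cebpb, Cebpd and Spi1 were lower, by 1.89-fold to 11.3-fold, and Irf8 was 1.85-fold higher, while Cebpg, Gfi1 and Id2 missed the threshold (limma, Benjamini-Hochberg adjusted p under 0.05 over 18193 genes). Over all genes 32.6% were called, 18.1% lower and 14.5% higher, shares that the members' counts are set beside without a test. The groups did not overlap for 6 members, as for 44.4% of all genes. The median difference of the 8 members was -0.61, beside -0.0021 over all genes. Centring each array on its median would add 0.23 to every difference, which turns the sign of negative values nearer to 0 than this.

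**Figure D1:**
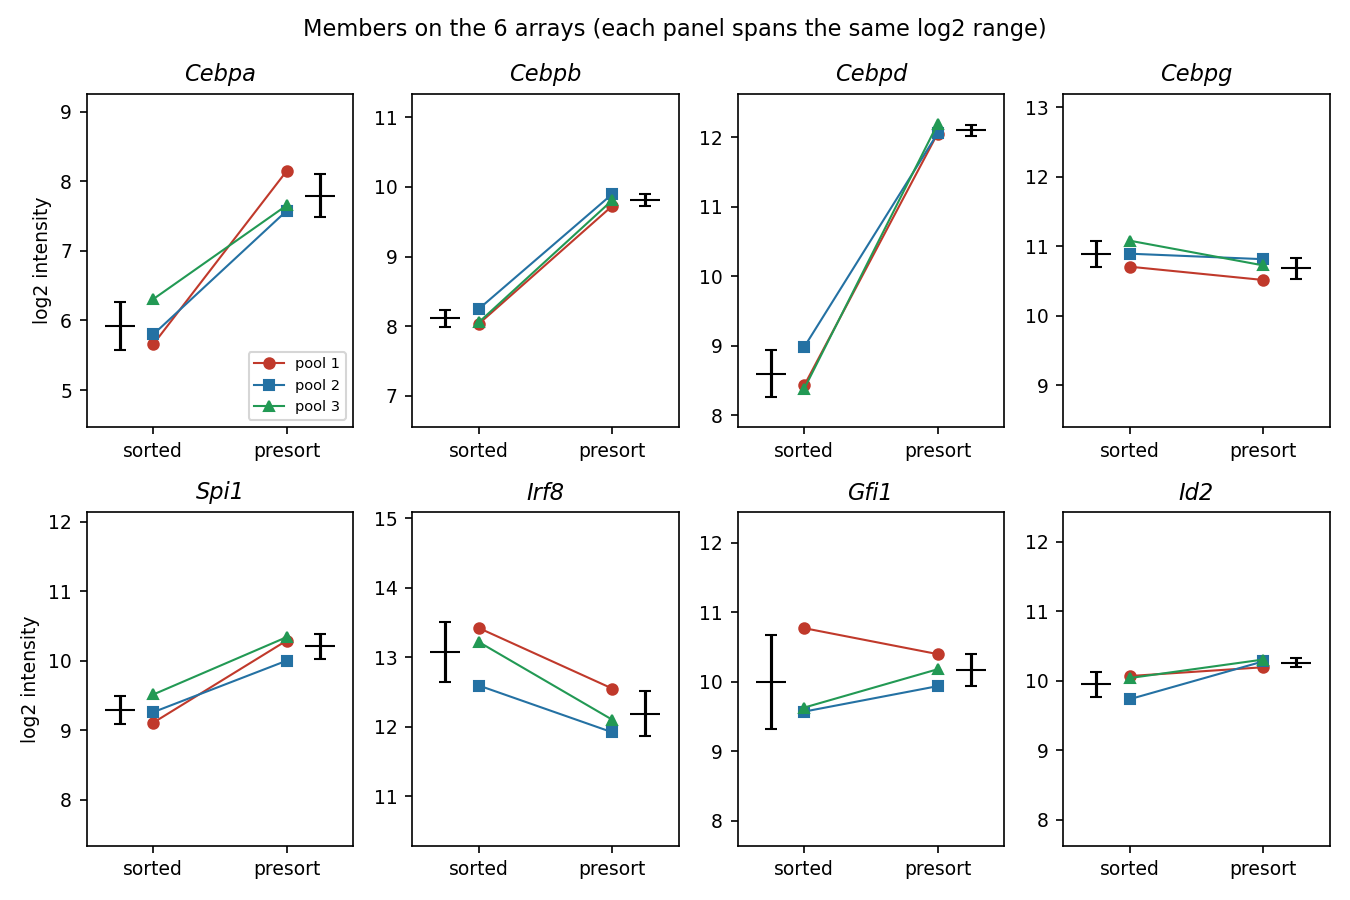
Log2 intensity of the 8 measured members on the 6 arrays, sorted left and presort right, with a line joining the arrays of each pool and black bars for mean ± SD (n = 3). Every panel spans the same log2 range: the lines of Cebpa, Cebpb, Cebpd and Spi1 run lower on the sorted side in each pool, that of Irf8 runs higher, and Gfi1 has 1 pool that runs against the other 2.

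Cebpd, whose product is induced by inflammatory cytokines and in maturing granulocytes, had the largest difference of the members. It stood at 8.43, 8.99 and 8.39 in sorted samples and at 12.06, 12.06 and 12.20 in presort samples of pools 1, 2 and 3. The groups were 3.07 apart at their nearest arrays, and the presort arrays had an SD of 0.08. The difference was -3.50 ± 0.17 (SE; 11.3-fold lower; limma adjusted p = 1.58e-05), with the lower value in 3 of 3 pools. Its dimmer probe set, 1456605_at, was lower by less, at 5.20, 5.16 and 4.74 in sorted samples against 5.74, 5.93 and 5.81 in presort samples. That probe set differed by -0.79 ± 0.15 (adjusted p = 0.00596 over all probe sets). The 2 probe sets of this gene disagree in size by far more than their errors, and averaging them put Cebpd at -2.15.

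Cebpa, the gene of the factor that opens the granulocyte and monocyte path, stood at 5.66, 5.80 and 6.31 in sorted samples and at 8.15, 7.58 and 7.66 in presort samples. Every sorted array was below every presort array. The difference was -1.87 ± 0.21 (SE; 3.66-fold lower; limma adjusted p = 0.000334), and within pools it was -2.49, -1.78 and -1.35, largest in pool 1. Its mean in sorted samples was above only 44.0% of all probe set values, and differences of dim genes are understated on this scale.

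Cebpb, the gene of a factor that can replace C/EBPα when granulocytes are made under stress, stood at 8.03, 8.25 and 8.05 in sorted samples and at 9.73, 9.90 and 9.81 in presort samples. The 3 pools gave nearly one value, -1.70, -1.65 and -1.75, and the groups did not overlap. The difference was -1.70 ± 0.11 (SE; 3.25-fold lower; limma adjusted p = 2.85e-05). The other Cebpb probe set, 1427844_a_at, differed by -2.06 ± 0.26 (adjusted p = 0.000909 over all probe sets), so both probe sets of Cebpb fell by similar amounts.

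Cebpg, the gene of the partner protein, stood at 10.70, 10.89 and 11.08 in sorted samples and at 10.51, 10.81 and 10.72 in presort samples. The groups overlapped, although the sorted array was the higher one in 3 of 3 pools. The difference was 0.21 ± 0.14 (SE; limma adjusted p = 0.327), with a 95% interval of -0.11 to 0.53, which leaves out a fall of the size seen for the other C/EBP genes. Its other probe sets, 1425261_at and 1451639_at, differed by 0.23 ± 0.11 and 0.10 ± 0.14, and neither passed. With each array centred on its median, Cebpg was called higher at 0.44 (adjusted p = 0.0217).

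The changes of the C/EBP genes were also set against each other within the same arrays. The change of Cebpg exceeded that of Cebpa by 2.08 ± 0.53 (SD over 3 pools), that of Cebpb by 1.91 ± 0.19 and that of Cebpd by 3.71 ± 0.51, in 3 of 3 pools each. The change of Cebpd minus that of Cebpa was -1.63 ± 0.73, and the change of Cebpd minus that of Cebpb was -1.80 ± 0.34, with a negative sign in 3 of 3 pools each. Each of these pairs gave a two-sided exact permutation p of 0.1, the smallest that 3 against 3 arrays allow, and 0.117 after adjustment over 7 pairs, so none can pass the threshold in this design. Averaging probe sets brought the change of Cebpd minus that of Cebpa to -0.28, that of Cebpd minus that of Cebpb to -0.27, and that of Cebpg minus that of Cebpd to 2.33. Cebpb and Cebpa were not separated: their changes differed by 0.17 ± 0.60, positive in 2 of 3 pools (exact permutation p = 0.5).

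**Figure D2:**
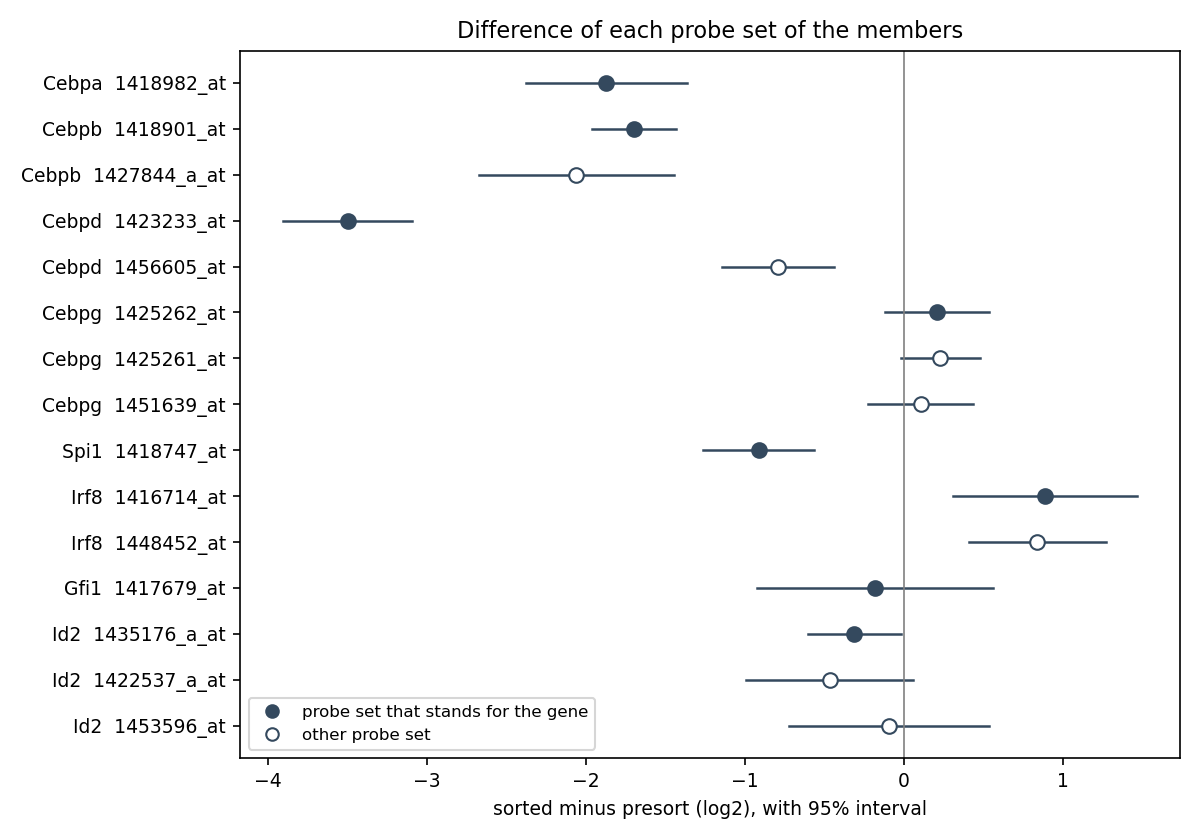
Sorted minus presort difference (log2) with its 95% interval from limma for all 15 probe sets of the 8 members; filled points are the probe sets that stand for their genes and open points the other ones. Both Cebpb and both Irf8 probe sets lie close together, whereas the 2 Cebpd probe sets lie at -3.50 and -0.79.

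Over the probe sets, 8 of the 15 were called, beside 28.8% of all 34945 probe sets. These 8 comprise every probe set of Cebpa, Cebpb, Cebpd, Spi1 and Irf8, and none of Cebpg, Gfi1 and Id2.

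Spi1, the PU.1 gene, stood at 9.11, 9.26 and 9.52 in sorted samples and at 10.29, 10.004 and 10.34 in presort samples. The sorted arrays all lay below the presort arrays, by 0.49 at the nearest. The difference was -0.92 ± 0.15 (SE; 1.89-fold lower; limma adjusted p = 0.00205), with -1.18, -0.74 and -0.83 in pools 1, 2 and 3. Spi1 was read by 1 probe set.

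Irf8 was the member that rose. It stood at 13.42, 12.59 and 13.22 in sorted samples and at 12.55, 11.92 and 12.10 in presort samples. In both groups the array of pool 2 was the lowest, and the groups were only 0.04 apart at their nearest arrays, sorted array 2 and presort array 1. The difference was 0.89 ± 0.24 (SE; 1.85-fold; limma adjusted p = 0.0250), with 0.87, 0.67 and 1.12 in pools 1, 2 and 3. The other Irf8 probe set, 1448452_at, rose by 0.84 ± 0.18 (adjusted p = 0.0119 over all probe sets). The call of the brighter probe set did not hold once the beta-actin difference entered as a covariate (0.54 ± 0.29, adjusted p = 0.237). It was lost too without sorted replicate 1 (0.72, 0.0634), sorted replicate 3 (0.82, 0.0801), presort replicate 2 (0.75, 0.0955), presort replicate 3 (0.84, 0.0858) or pool 3 (0.77, 0.205). With a term for pool in the fit, the replicate block, the call held (limma adjusted p = 0.00208). The fits that left arrays out or took in the covariate had no such term. The change of Irf8 exceeded that of Spi1 by 1.80 ± 0.34 (SD over 3 pools; exact permutation p = 0.1), in 3 of 3 pools. Of 10 measured markers of plasmacytoid dendritic cells, another source of Irf8 RNA, 3 rose and 4 fell (background 14.5% higher and 18.1% lower). The risers were Irf8 itself, which is the value in question here, and Tcf4 and Spib, and B cells make all of them too. The falls numbered 1 without sorted replicate 2, presort replicate 2 or presort replicate 3 and with the beta-actin covariate, 2 without sorted replicate 1, and 0 without pool 2. The falls included the lectin gene Siglech at -0.95, named after its value was seen, and Irf7 at -1.45. The Siglech call was lost under 5 of 18 other settings, among them each of those that left 1 or 0 falls (adjusted p up to 0.202), and the part of these cells in the Irf8 difference was not tested.

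Gfi1, the gene of the zinc finger repressor, differed between the sorted arrays more than between the groups. It stood at 10.77, 9.57 and 9.63 in sorted samples and at 10.40, 9.94 and 10.18 in presort samples. Sorted replicate 1, the array with the highest 3′ to 5′ differences, was the highest of all 6 arrays, and the other sorted arrays were the lowest. The difference was -0.18 ± 0.31 (SE; limma adjusted p = 0.738; 95% interval -0.91 to 0.54). Without sorted replicate 1 Gfi1 was called lower at -0.57 ± 0.15 (adjusted p = 0.0268), and it was called at -0.46 without pool 1 (0.0488) and at -0.94 with the beta-actin covariate (0.00793). It was at 0.03 without sorted replicate 2 and at 0.0033 without pool 3, so its direction rests on which arrays enter.

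Id2, the gene of the inhibitor of E proteins, stood at 10.07, 9.73 and 10.04 in sorted samples and at 10.19, 10.28 and 10.30 in presort samples. All sorted arrays lay below the presort arrays, by 0.13 at the nearest, and the difference was -0.31 ± 0.13 (SE; 1.24-fold lower). It did not pass (limma adjusted p = 0.101), although the unadjusted p was 0.0386. The other Id2 probe sets, 1422537_a_at and 1453596_at, differed by -0.47 ± 0.22 and -0.10 ± 0.27 and did not pass, and with median centring the difference was -0.08.

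**Figure D3:**
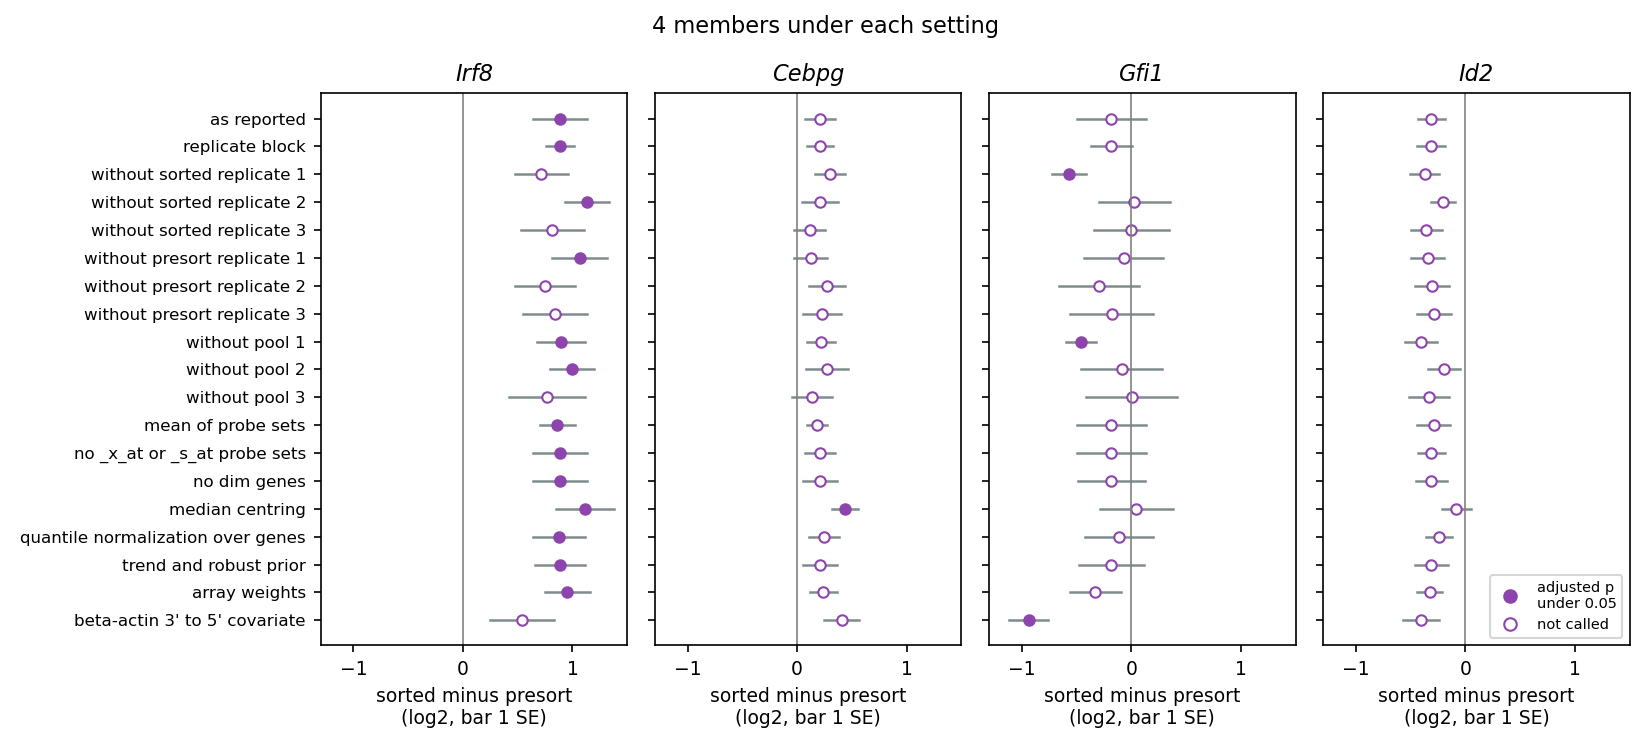
Sorted minus presort difference (log2) of Irf8, Cebpg, Gfi1 and Id2 as reported and under each of 18 other settings; bars are 1 SE and filled points have a limma adjusted p under 0.05. Irf8 stays above 0 under every setting shown but is filled in only some of them, Gfi1 crosses 0, and Id2 is never filled.

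The genes that C/EBP proteins and PU.1 are known to control in granulocytes and monocytes were lower throughout. Of 32 genes listed 30 were measured, and all 30 fell, with a median of -2.02 and a range from -3.97 to -0.67 (background 18.1% lower). The smallest falls, -0.67 for Lyz1, -0.69 for Ngp and -0.81 for S100a8, were of genes with presort means of 14.94, 15.07 and 15.01. These are near the top of the deposited values, and whether the upper end of the scale made the falls smaller was not tested. Itgam, the CD11b integrin chain of myeloid cells, fell most, with a difference of -3.97 ± 0.27 (SE, log2; limma adjusted p = 3.2e-05). The interleukin-1 receptor antagonist gene Il1rn stood at -3.63 ± 0.22 (-1.94 when its probe sets were averaged), the gelatinase gene Mmp9 at -3.49 ± 0.22 and Csf3r, the receptor of granulocyte colony-stimulating factor, at -3.43 ± 0.23, with adjusted p of 2.33e-05, 2.59e-05 and 2.82e-05. Of these genes 12 are also the 12 measured neutrophil markers given above, and 1 is among the monocyte and macrophage markers. The list thus repeats in part the fall of those markers. Whether its genes fell with their factors or with the number of such cells was not tested. Under the settings tried, between 24 and 30 of them were called lower and none higher.

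**Figure D4:**
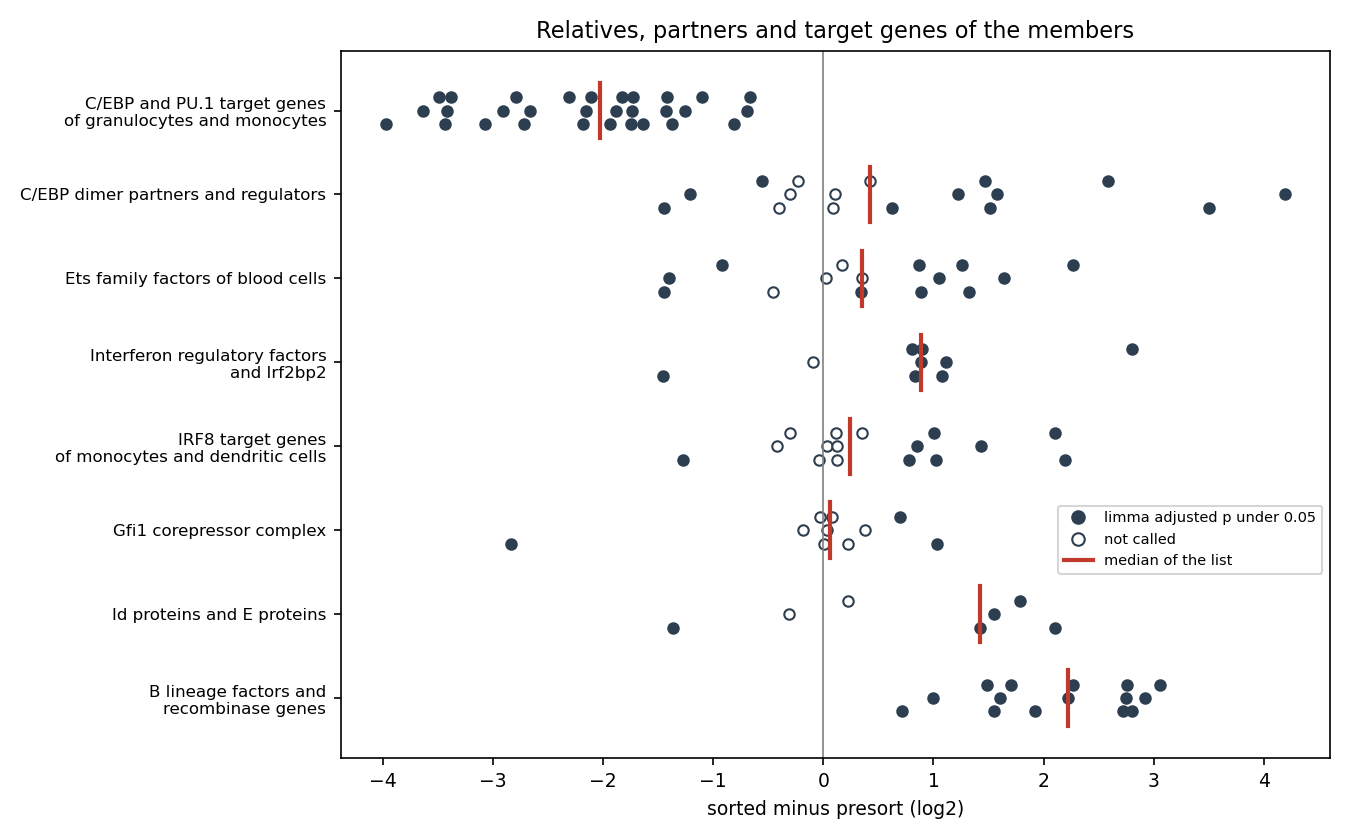
Sorted minus presort difference (log2) of each measured gene of 8 lists; filled points have a limma adjusted p under 0.05 and red lines are list medians. All points of the C/EBP and PU.1 target genes lie below 0 (median -2.02) and all genes of the B lineage list, recombinase genes included, above 0 (median 2.22), with the families of the members spread between them.

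Genes of proteins that pair with C/EBP factors or act on them rose more often than they fell. Of 17 measured genes of this list, 8 rose and 3 fell, with a median of 0.42 (background 14.5% higher and 18.1% lower). The share that fell was near the background. Trib2, whose product drives the breakdown of C/EBPα, stood at 12.45 in sorted samples and 8.94 in presort samples on average and rose by 3.50 ± 0.32 (SE; limma adjusted p = 0.000104), or by 2.05 when its probe sets were averaged. Trib1, a relative with the same action, rose by 1.22 (0.87 on averaging probe sets), while Trib3 did not pass at 0.09 (limma adjusted p = 0.614). Dbp and Tef, also of this list, rose by 1.51 and 1.47 (1.11 and 1.10 on averaging probe sets). Atf3, a stress-induced zipper protein, rose by 2.58 ± 0.28 (adjusted p = 0.000235). Jun rose by 4.19 ± 0.98 and Fos by 1.58 ± 0.50 (adjusted p of 0.0122 and 0.0431), but the Jun call was lost under 3 and the Fos call under 9 of 18 other settings, both of them without pool 2 and with the beta-actin covariate. Without presort replicate 3 Fos stood at 0.98 and without pool 3 at 1.02, where Jun stood at 2.75. Nfil3, Hlf and Batf3 fell, with differences of -1.44, -1.21 and -0.56, and the Batf3 call was lost without pool 2, with median centring (-0.33) and with the beta-actin covariate. Atf4, a zipper protein that pairs with C/EBPγ, rose by 0.62, a call lost without pool 2 or pool 3, and Ddit3, a C/EBP relative that blocks the others, did not pass at 0.42 (adjusted p = 0.227) but was called with the replicate block (adjusted p = 0.0327), on averaging probe sets (0.54) and with median centring (0.65). Without pool 2 the count of risers in this list was 5.

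Genes of the Ets family list rose more often than they fell. Of 15 measured genes, Spi1 included, 8 rose and 3 fell, with a median of 0.35 (background 14.5% higher and 18.1% lower). The share that fell was near the background. Spib, the closest relative of PU.1 that lymphoid and plasmacytoid cells make, rose by 2.27 ± 0.31 (SE; limma adjusted p = 0.000827) while Spi1 fell. Ets2 rose by 1.64 ± 0.35 (0.98 on averaging probe sets and 0.79 with the beta-actin covariate). Spic, the relative that red pulp and marrow macrophages make, fell by 1.40 ± 0.14. Erg stood at -1.45 ± 0.18 (-0.69 on averaging probe sets). Without pool 3 the count of risers was 5.

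Most genes of the interferon regulatory factor list, which also holds Irf2bp2, the gene of a protein that binds IRF2, rose with Irf8. Of its 9 measured genes 7 rose, Irf8 and Irf2bp2 among them, and 1 fell, with a median of 0.89 (background 14.5% higher and 18.1% lower). The risers numbered 5 without presort replicate 2, presort replicate 3 or pool 3 and with the beta-actin covariate. The Irf2bp2 call was lost under 4 of 18 other settings. Irf4, the relative of Irf8 that B cells and plasma cells use, rose by 2.80 ± 0.29 (SE; limma adjusted p = 0.00021), or by 2.00 on averaging probe sets. Irf1 rose by 1.11 ± 0.10 and Irf5 by 1.08 ± 0.18 (0.63 on averaging probe sets). Irf7, the interferon-inducing factor of plasmacytoid dendritic cells, fell by 1.45 ± 0.28, a call lost without pool 2 (adjusted p = 0.0582). Of 16 measured genes described as needing IRF8 in mononuclear phagocytes, 7 rose, 1 fell and 8 did not pass. Their median was 0.24, beside a background of 14.5% higher and 18.1% lower, so the share that fell was below it. The risers included Blnk, a B cell adaptor, at 2.19 ± 0.28, Klf4 at 2.10 ± 0.29 and Cd74, the invariant chain of MHC class II, at 1.43 ± 0.14, all of which cells other than phagocytes also make. The fall was of Naaa, at -1.27 ± 0.15 (-0.51 on averaging probe sets), and without pool 3 the count of risers was 4.

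Among the partners of Gfi1, its paralog Gfi1b, which acts in erythroid cells and platelets' precursors, fell by 2.83 ± 0.17 (SE; limma adjusted p = 2.36e-05). Of 10 measured genes of this complex, 2 rose, 1 fell and 7 did not pass, Gfi1 itself among those, with a median of 0.06; these shares are near the background of 14.5% higher and 18.1% lower. Without sorted replicate 1 or pool 1 the falls numbered 2. The histone demethylase gene Kdm1a rose by 0.70 ± 0.11 and Zbtb17 by 1.03 ± 0.11 (0.58 on averaging probe sets). The scaling matters here, as median centring moves the median to 0.28.

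The E protein genes Tcf3, Tcf12 and Tcf4, whose products Id2 binds, rose by 1.78 ± 0.16, 1.55 ± 0.12 and 1.42 ± 0.13 (SE; limma adjusted p of 0.00011, 5.54e-05 and 0.000117). Id3 rose by 2.10 ± 0.25 (adjusted p = 0.000401), Id1 fell by 1.37, and Id2 and Id4 did not pass at -0.31 and 0.22. Of the 7 genes of this list 4 rose and 1 fell (background 14.5% higher and 18.1% lower), counts that stayed the same under all 18 other settings. The share that fell was no larger than the background.

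All 15 genes of a B lineage list rose, with a median of 2.22 (background 14.5% higher). The count called was 13 without pool 3, on averaging probe sets and with the beta-actin covariate. Besides transcription factors, these include the coactivator gene Pou2af1 and the recombinase genes Rag1 and Rag2, whose products cut DNA in V(D)J recombination. Ebf1, which commits progenitors to the B lineage, rose by 3.06 ± 0.28 (SE; limma adjusted p = 0.000117), and Foxo1 by 2.92 ± 0.26. Averaging probe sets put Ebf1 at 2.41 and Foxo1 at 2.34. The list shares Irf4 and Spib with the lists of relatives above.

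By profile over the 6 arrays, centred on each gene's mean, the named genes nearest to Cebpd were Mmp9, Atp11a and Mtus1 (root mean square distance of 0.11, 0.121 and 0.127 on the log2 scale). Those nearest to Cebpa were Nrip3, Wdr62 and Ticrr (0.122, 0.134 and 0.143), and those nearest to Cebpb were Stx2, Rab31 and Cd200r1 (0.0296, 0.0393 and 0.0439). Spi1 lay nearest to Itm2b, Uap1l1 and P4hb (0.074, 0.0854 and 0.0912), and Irf8 to Nkapd1, Rasal3 and Map3k14 (0.075, 0.0851 and 0.0929). Of the members that did not pass, Cebpg lay nearest to Oxa1l, Ly6g6c and Exog (0.0262, 0.0293 and 0.0308), Gfi1 to Bbs2, Sytl4 and Inf2 (0.126, 0.127 and 0.153) and Id2 to Aldh5a1, Fasn and Strada (0.031, 0.0435 and 0.0447). With 6 arrays in 2 groups, such a distance mostly reads the size of the group difference.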

How the data were processed

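RNA of 3 sorted and 3 presort mouse marrow samples was measured, each on 1 Affymetrix 3′ array. The authors deposited linear intensities, 9.71 to 38492.08; the submitters' processing notes name RMA, with no version in the sources used here. Put in order, each array's values lay within 0.181% of the arrays' mean, as after quantile normalization, so a change in total RNA per cell leaves no trace. The number of arrays limits the precision.

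Log2 was taken with no pseudocount. Of 45101 probe sets, 34945 carried 1 symbol of the platform's annotation, 932 several, 9160 none here and 64 were controls. The group difference was fitted by lmFit and eBayes of limma 3.58.1 (R 4.3.3), with no term for pool, and tested on both sides. The replicate block is an alternative fit that adds this term. All p-values were adjusted by Benjamini-Hochberg over all 18193 genes, or over all single-symbol probe sets, and called under 0.05. Differences between members used an exact permutation test that also left the pairing of samples out. Of these pairs of members, 11 were planned and 7 computed, since Cebpe was not measured. The limma fit was tested on simulated data of independent genes, most of them without a group difference and none with a pool effect. The other steps were not tested in this way. Figures were drawn with matplotlib 3.10.9.

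Per the labels, samples of one number come from 1 pool, so the numbers pair the samples; deviations of same-numbered arrays from their group means correlated at 0.39, 0.20 and -0.03 across genes. Replicates were pools of mice collected on separate sorting days. Members, lists (227 genes, 207 measured, 1 through a synonym) and alternatives were chosen with earlier results of these data known. Named genes are the members, up to 4 called genes with the largest difference per list with 1 sign in 3 pools, and 3 nearest profiles per member. Trib1, Trib3, Dbp, Tef, Batf3, Nfil3, Hlf, Atf4 and Ddit3 were named after their values were seen. So were Id1, Id4, Irf2bp2, Pou2af1, Rag1, Rag2, Lyz1, Ngp and S100a8.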

Additional observations from a re-analysis of the deposited data

How the results depend on the processing

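Of the members, Cebpa, Cebpb, Cebpd, Spi1 and Id2 kept their direction and their side of the threshold under all 18 alternatives, from -2.13 to -1.56 for Cebpa, -1.88 to -1.47 for Cebpb, -3.71 to -2.15 for Cebpd, -1.02 to -0.69 for Spi1 and -0.41 to -0.08 for Id2. With arrays or pools left out, Irf8 ran from 0.72 to 1.13, Gfi1 from -0.57 to 0.028, through 0.0033 without pool 3, and Cebpg from 0.12 to 0.30. Under the other settings, Irf8 missed at 0.54 with the beta-actin covariate, Gfi1 passed at -0.94 with it and stood at 0.046 with median centring, and Cebpg passed at 0.44 with median centring; the cause was not tested. Genes called higher numbered 2629, from 1544 to 2608 with arrays or pools left out (1544 without pool 3, a fit of fewer arrays) and 5162 with median centring, where 66.7% of called genes were higher, against 44.4% as reported. With quantile normalization over genes 54.3% were. The replicate block called 2860 genes higher and 3548 lower and changed no member's call (Irf8 adjusted p = 0.00208). Without detection calls, differences of dim probe sets are bounded by background.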

Other observations

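Other transcription factors known from myeloid development moved in both directions. Of 30 measured genes of this list, the members not included, 10 rose and 12 fell, with a median of -0.16 (0.06 with each array centred on its median; background 14.5% higher and 18.1% lower). The risers numbered 5 without pool 3. Nfe2, a zipper factor of erythroid cells and platelets' precursors, fell by 3.35 ± 0.15 (SE, log2; limma adjusted p = 1.47e-05). Tfec, a macrophage relative of Mitf, stood at -3.18 ± 0.23. The early growth response genes Egr1 and Egr2, which favour the monocyte fate and are also induced by handling and activation, rose by 3.67 ± 0.94 and 3.22 ± 0.43. The Egr1 call was lost under 6 of 18 other settings (highest adjusted p = 0.128). Genes named after their values were seen include Zeb2, at 1.55, Myb, at 1.10, and the retinoid receptor genes Rara, Rarg and Rxra, at -0.66, -1.18 and -1.26. The Rara call was lost under 7 and the Rarg call under 4 of 18 other settings, and averaging probe sets put Rarg at -0.60 and Rxra at -0.57.

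Markers of further cell types gave these counts, beside a background of 18.1% lower. All 8 measured eosinophil, basophil and mast cell markers fell (median -2.94), 9 of 10 erythroid markers fell (median -2.67), and 5 of 14 NK and T cell markers fell (median -0.63). The NK and T cell count was 1 with median centring, with the beta-actin covariate and without pool 1 or pool 2, and 10 without pool 3. It was 2 without replicate 1 or 2 of either group, taken singly, and 9 without sorted replicate 3. Counts of 1 or 2 of 14 lie below the share of 18.1% lower over all genes as reported.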
